A study of Canis lupus familiaris with 4 samples.

Results

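Chromosome 11 of the dog genome held 1459 of the 59081 accessible sites (2.47%) measured by ATAC-seq in MDCKII cells, and 1458 of them had enough counts to be tested. ATAC-seq marks open DNA through insertion of sequencing adapters by the transposase Tn5, and each site, or peak, was 501 bp wide. The members are all peaks whose coordinates lie on that chromosome. The chromosome was chosen from measured values, its large share of gained peaks and its small share of lost peaks, so those shares are given below as a description without a test of the chromosome. MDCKII is a line from canine kidney whose cells form a polarised epithelial layer. The tested group was taken from layers cultured for 7 d, detached, and plated again 2 h before collection (reseeded, libraries A and B). Its reference was layers of the same line left intact at 7 d (mature, libraries A and B). Sample titles of both groups carry the label wt (wild type). No genetic change or added agent is named for either group, and the medium was the same.

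A chromosome is not evenly open. Accessible sites cluster around active genes and their enhancers, and long gene-poor stretches, often held at the nuclear lamina, contain few. Parts of dog chromosome 11 correspond to parts of human chromosomes 5 and 9. RefSeq places 577 protein-coding genes on the chromosome in another dog assembly (UU_Cfam_GSD_1.0), the 14th highest number among the 38 numbered chromosomes. They include LMNB1, which encodes the nuclear lamina protein lamin B1, SMC2, a condensin subunit, and MACROH2A1, a histone variant. Genes for cell contact and the cytoskeleton lie there too, among them CTNNA1 (the adherens junction protein alpha-catenin), MPDZ (a tight junction scaffold), TLN1 (talin, which links integrins to actin), TPM2 (a tropomyosin) and GSN (the actin-severing protein gelsolin). EGR1 and KLF4, transcription factors that respond to growth signals, are also on it. The peaks carry CanFam3.1 positions, so none was placed on any of these genes. With 2.53 peaks per protein-coding gene, the chromosome stood 7th from the bottom of the 38, whose median was 2.89.

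Total counts over all peaks were 16906566 and 24015663 in reseeded libraries A and B, and 8759513 and 6253706 in mature libraries A and B. Levels are CPM (counts scaled to library size) with trimmed-mean (TMM) factors, and 3 counts equal 0.175 and 0.123 CPM in reseeded A and B and 0.348 and 0.486 CPM in mature A and B. Log2 folds are reseeded over mature, and a peak is called at a Benjamini-Hochberg adjusted p under 0.05 in edgeR's quasi-likelihood test over all peaks. Nothing in the labels ties A and B to separate cultures, so calls rest on how far A and B differ, and that difference may be technical. Sample names carry a code shared within each group and different between them. Any batch effect tied to that code and the effect of reseeding cannot be told apart. On chromosome 11, Pearson's r of log2(CPM + 0.5) across peaks was 0.989 between the reseeded libraries, 0.974 between the mature libraries and 0.422 to 0.443 between groups. The other numbered chromosomes had 0.991, 0.975 and 0.385 to 0.390. The chromosome 11 correlations are across 1458 peaks, which are not independent replicates.

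Chromosome 11 combined many gains with few losses. At least 2-fold higher accessibility after reseeding was called at 491 peaks (33.7% of those tested), where the other numbered chromosomes had 26.9%. At least 2-fold lower accessibility was called at 134 peaks (9.19%), where the others had 15.1%. Gains of at least 4-fold numbered 199 (13.6%, others 10.1%) and losses of at least 4-fold numbered 45 (3.09%, others 5.96%). Calls of any size covered 1195 peaks (82.0%, others 84.2%), and a further 221 higher and 349 lower peaks were called with folds under 2. The median log2 fold was 0.22 on chromosome 11 and -0.0061 on the other numbered chromosomes. As these values chose the chromosome, nothing is read from their distance to the background. Loess offsets trended on mean level lowered the median log2 fold of all peaks from -0.0086 to -0.11. Under them 263 members were at least 2-fold higher and 163 lower. The share higher was then 1.38 percentage points above that of the other numbered chromosomes, in place of 6.82. The difference in the share lower was -5.25 points, in place of -5.87.

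**Figure D1:**
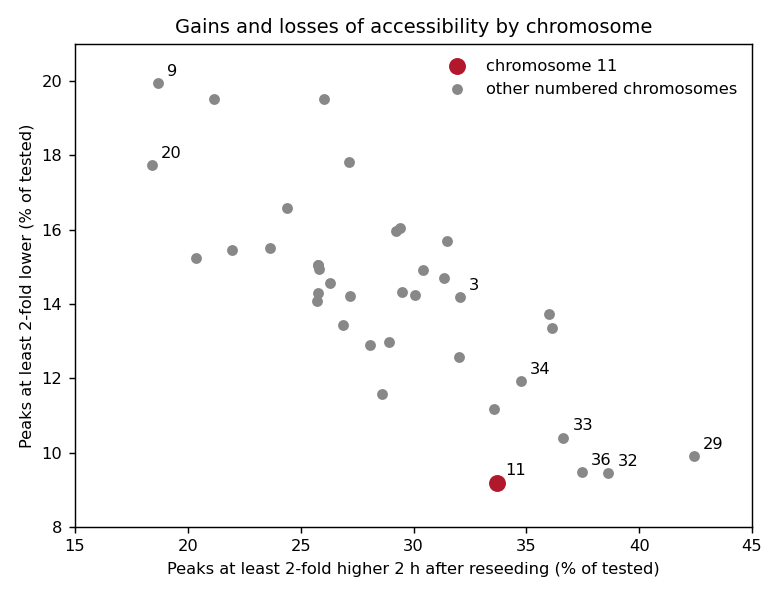
Each point is 1 of the 38 numbered chromosomes, with the share of tested peaks at least 2-fold higher 2 h after reseeding on the horizontal axis and the share at least 2-fold lower on the vertical axis (both % of tested peaks). Chromosome 11 (red, 33.7% higher and 9.19% lower) is the lowest point, left of chromosomes 36, 32 and 29, which have larger shares higher.

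Among the 38 numbered chromosomes, chromosome 11 had the lowest share of peaks at least 2-fold lower and the 8th highest share at least 2-fold higher. The next lowest shares of losses were 9.44% on chromosome 32, 9.47% on chromosome 36 and 9.91% on chromosome 29. Those chromosomes gained more, with 38.6%, 37.4% and 42.4% of peaks at least 2-fold higher. They are also sparser, at 14.7, 14.8 and 12.8 peaks per Mb, whereas chromosome 11 had 19.6. Chromosomes 3, 33 and 34 were nearest in density (19.6, 19.9 and 19.1 peaks per Mb). Their shares of gains were 32.04%, 36.6% and 34.8%, and their shares of losses 14.2%, 10.4% and 11.9%. The ratio of gained to lost peaks was 3.66 on chromosome 11, against 2.26, 3.52 and 2.92 on chromosomes 3, 33 and 34. It was the 4th highest of the 38, after 4.28, 4.09 and 3.95 on chromosomes 29, 32 and 36. Rank depends on the setting: by loess offsets chromosome 11 was 4th from the lowest in losses and 14th in gains, with all libraries thinned to the shallowest it was 2nd from the lowest in losses, and with a bound of 1.5-fold it was 5th from the lowest in losses.

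Most gains were at sites that were weak in mature cells. The 491 peaks at least 2-fold higher had median levels of 12.3 and 12.3 CPM in reseeded libraries A and B, against 3.02 and 3.73 CPM in mature libraries A and B. The 134 peaks at least 2-fold lower had medians of 5.16 and 5.23 CPM in reseeded A and B, against 16.2 and 15.8 CPM in mature A and B. Gained sites thus reached a level close to the median of all members in reseeded cells, which was 12.2 CPM in A and 12.3 CPM in B. The mature libraries had medians over all members of 10.2 and 10.0 CPM, and the other numbered chromosomes 12.8 and 12.8 CPM in reseeded and 12.3 and 12.6 CPM in mature libraries.

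Weak sites were fewer in reseeded than in mature cells. A reseeded mean under 5 CPM was found at 68 members (4.66%, others 8.05%). A mature mean under 5 CPM was found at 376 members (25.8%, others 19.6%), and 350 of these (93.1%) were at least 2-fold higher after reseeding, as were 88.4% of such peaks on the other chromosomes. Of the 399 members at 10 to 20 CPM in mature cells, 17.5% were at least 2-fold lower, as were 25.0% of such peaks on the other chromosomes. Of the 84 members above 40 CPM in mature cells, 0 gained 2-fold or more by edgeR and 12 (14.3%) lost as much, where the 4634 such peaks elsewhere had 0.194% and 18.8%. The fold and the mature level share the mature counts, so a low mature level goes with a gain by construction.

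Summed over the chromosome, the CPM gained at peaks that were higher exceeded the CPM lost at peaks that were lower. The 491 peaks at least 2-fold higher added up to 7509 and 7572 CPM in reseeded A and B, against 1955 and 2275 CPM in mature A and B. The 349 peaks lower by under 2-fold added up to 6616 and 6614 CPM in reseeded A and B, against 9762 and 9123 CPM in mature A and B. Between group means, the sum over the large gains was 5426 CPM higher and that over the 221 peaks higher by under 2-fold 1251 CPM higher. The sum over the mild losses fell by 2828 CPM, and that over the losses of 2-fold or more fell by 1918 CPM. All tested members together had 22841 and 22933 CPM in reseeded A and B, against 21279 and 20735 CPM in mature A and B. The 349 mildly lower peaks had a median of 14.7 CPM in reseeded and 21.5 CPM in mature cells.

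The 10 largest gains were sites with 1 to 19 counts in a mature library. The peak from 61819399 to 61819899 had 11.7 and 12.0 CPM in reseeded A and B, against 0.116 and 0.486 CPM in mature A and B, which are 1 and 3 counts. Its log2 fold was 5.41 (SE 0.36), the highest on any numbered chromosome, where the others reached 4.99. That rank rests on the few mature counts, and by loess offsets the log2 fold of this peak was 2.03. The ratio of pooled counts was 45.2 (95% exact Clopper-Pearson interval 17.5 to 167, counting error only). This peak is an isolated site, with the nearest other peak 66009 bp away. With mature A left out its fold was 24.1, and with mature B left out 95.5.

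The next gains lay elsewhere on the chromosome and rested on more mature counts. The peak from 23827999 to 23828499 had 31.2 and 34.7 CPM in reseeded A and B, against 0.928 and 1.46 CPM in mature A and B, a log2 fold of 4.84 (SE 0.20). All 3 other peaks within 50 kb of it were at least 2-fold higher. The peak from 56317552 to 56318052 had 30.9 and 31.4 CPM in reseeded A and B, against 1.62 and 1.30 CPM in mature A and B, a log2 fold of 4.38 (SE 0.18). It lies in the 1 Mb step with the highest fold of the chromosome, described below with the other steps.

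Of the 7 gains that follow, with log2 folds of 3.70 to 3.96, some stood alone and some among other gains. The peak from 37026548 to 37027048 had 21.999 and 21.326 CPM in reseeded A and B, against 1.28 and 1.62 CPM in mature A and B, and its nearest neighbour was 76735 bp away. The peak from 41001477 to 41001977 had 18.0 and 15.9 CPM in reseeded A and B, against 1.04 and 1.46 CPM in mature A and B, and 9 of 10 peaks within 50 kb of it were at least 2-fold higher. The peak from 5105749 to 5106249 had 30.8 and 33.8 CPM in reseeded A and B, against 2.20 and 2.75 CPM in mature A and B. In all 10 the groups are far apart, with no reseeded library under 11.7 CPM and no mature library over 2.75 CPM, but non-overlap was part of the rule that named them. The 10 peaks had 37 neighbours within 50 kb, of which 25 had gained 2-fold or more and 2 had lost as much. Of those 25, 9 lay around the peak from 41001477. Over all tested members, 33.7% had gained and 9.19% had lost as much. By loess offsets 8 of the 10 folds moved by more than 1.5 times, to log2 values of 1.97 to 4.02, and all 10 were still called. The other 4 begin at 63764173, 603769, 14060381 and 41301793.

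**Figure D2:**
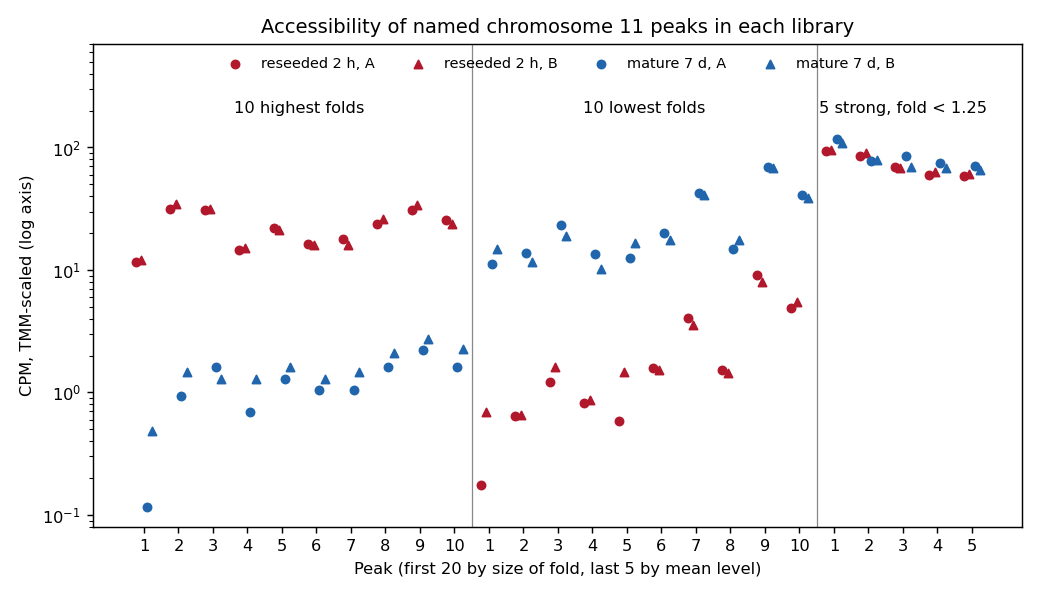
Accessibility (CPM, log axis) of the 25 named peaks of chromosome 11 in each of the 4 libraries, reseeded in red and mature in blue, circles for A and triangles for B. In the 10 highest folds mature libraries stay at or under 2.75 CPM, in the 10 lowest folds reseeded libraries stay at or under 9.16 CPM, and in the 5 strong peaks all libraries lie between 58.2 and 118 CPM.

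The 10 deepest losses were sites with 3 to 193 counts in a reseeded library. The peak from 21155851 to 21156351 had 0.175 and 0.697 CPM in reseeded A and B, against 11.1 and 14.7 CPM in mature A and B. Its log2 fold was -4.72 (SE 0.355), from 3 and 17 counts in reseeded A and B, and the mature over reseeded ratio of pooled counts was 25.5 (95% exact Clopper-Pearson interval 16.0 to 42.7). The reseeded libraries differ here, and without reseeded B the log2 fold was -6.11. The peak from 33672880 to 33673380 had 0.642 and 0.656 CPM in reseeded A and B, against 13.7 and 11.7 CPM in mature A and B, a log2 fold of -4.28 (SE 0.31). It stands alone, 164255 bp from the next peak.

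A pair of the deepest losses were adjoining strong sites, and others were isolated. The peak from 26049764 to 26050264 had 4.03 and 3.57 CPM in reseeded A and B, against 42.8 and 40.7 CPM in mature A and B. The peak from 26050287 to 26050787, whose midpoint is 523 bp away, had 9.16 and 7.92 CPM in reseeded A and B, against 69.7 and 68.0 CPM in mature A and B. Their log2 folds were -3.47 (SE 0.12) and -3.03 (SE 0.09), and both stayed well above the counting floor in reseeded cells. The peak from 8924151 to 8924651 had 0.584 and 1.48 CPM in reseeded A and B, against 12.4 and 16.5 CPM in mature A and B, 207106 bp from any other peak. Its log2 fold was -3.69 (SE 0.28), and -4.60 without reseeded B. The other 5, with log2 folds of -3.87 to -2.93, begin at 34207513, 16933162, 20768292, 3289201 and 20718756. Within 50 kb of the 10 losses lay 74 other peaks (a peak near several is counted for each), 22 of them lost by 2-fold or more and 5 gained. The adjoining pair, and likewise the peaks from 20768292 and 20718756, count each other. Each of these peaks has 4 lost neighbours. Over all tested members, 9.19% had lost 2-fold or more and 33.7% had gained as much. By loess offsets 7 of the 10 folds moved by more than 1.5 times, to log2 values of -7.84 to -4.87, and all 10 were still called.

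The strongest sites with similar levels in both states were close in all 4 libraries. The peak from 1998517 to 1999017 had 94.0 and 94.7 CPM in reseeded A and B, against 118 and 108 CPM in mature A and B, a log2 fold of -0.27 (SE 0.06). The peak from 22628776 to 22629276 had 85.4 and 89.6 CPM in reseeded A and B, against 77.7 and 78.9 CPM in mature A and B, a log2 fold of 0.16 (SE 0.07). The other 3, which begin at 51651618, 2660936 and 51049738, had log2 folds of -0.21 to -0.20. Such sites are open before and after reseeding, and a small fold was part of the rule that named them. Under loess offsets the log2 fold of 4 of the 5 had the opposite sign. All but the peak that begins at 1998517 lost their call with reseeded A left out, and those at 51651618, 2660936 and 51049738 also with mature A left out.

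Along the chromosome, steps called higher were interspersed with steps called lower. An unbroken stretch of steps called in the same direction also ended at a step that was empty, untested or not called. Successive stretches could therefore have the same direction. Of 25 such stretches, 13 were a single step long and 7 were 3 steps or longer. Of 75 steps of 1 Mb, 10 held no peak, 14 held 1 to 4 peaks and 51 held at least 5 and were tested on summed counts with all 1803 such windows. Of the 51, 28 (54.9%) were called higher, where the other numbered chromosomes had 44.9%, and 19 (37.3%) were called lower, where the others had 41.7%. The split depended on the scaling: library size alone gave 32 higher and 7 lower, and upper-quartile factors gave 28 and 12. The median log2 fold of windows on all chromosomes also moved, from 0.016 to 0.13 and 0.050 under these scalings. Shares called on the other chromosomes under them are not given, so the comparison with chromosome 11 holds for the main scaling only. Without reseeded A, 25 were called higher and 12 lower. No step reached a 2-fold difference in either direction by edgeR (0 at an unadjusted p under 0.05 and 0 by DESeq2), as log2 folds ran from -0.51 to 0.91. Library size alone put 1 step past 2-fold, steps shifted by 500 kb put 1 there, and a minimum of 3 peaks put 2 there, all higher. Elsewhere 43 of 1676 windows were 2-fold or more higher and 15 lower.

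**Figure D3:**
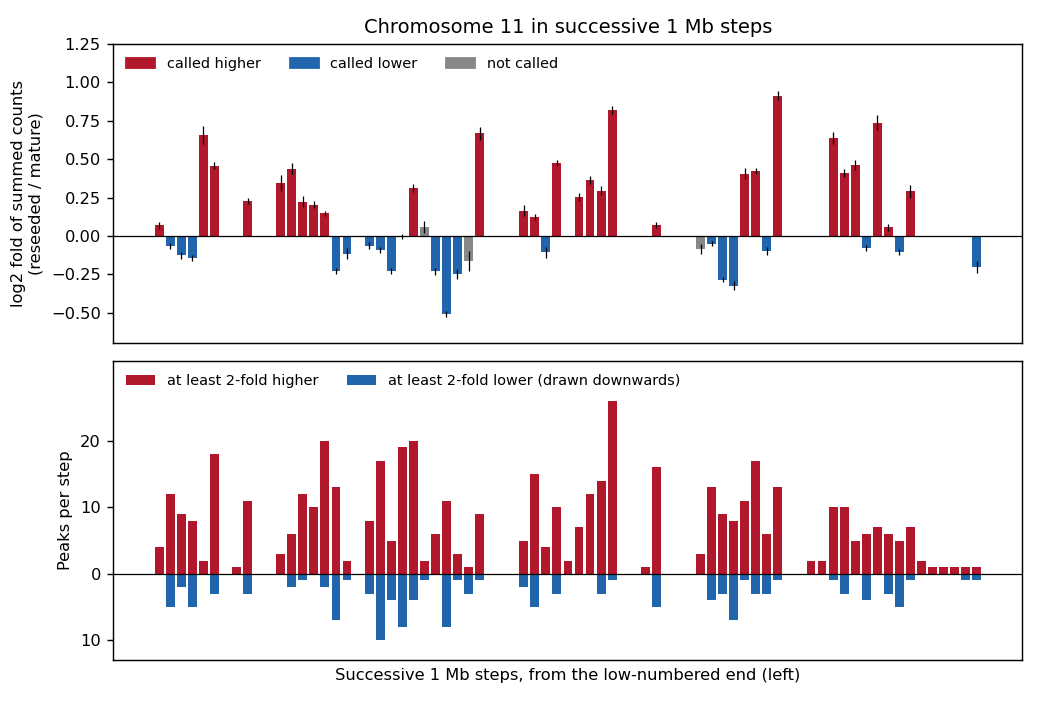
Chromosome 11 in successive 1 Mb steps from the low-numbered end at the left. The upper panel shows the log2 fold of summed counts (reseeded over mature, bars ± SE) for the 51 steps with at least 5 peaks, and the lower panel the number of peaks at least 2-fold higher (red, upwards) and lower (blue, downwards) in every step; higher steps reach 0.91 and lower steps -0.51, and gained peaks outnumber lost ones in 48 of the 51.

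The steps that rose most were spread over the chromosome. The step from 56000001 to 57000000 had 246.0 and 246.4 CPM in reseeded A and B, against 129.4 and 132.5 CPM in mature A and B, a log2 fold of 0.91 (SE 0.03), and 13 of its 20 peaks were at least 2-fold higher. The step from 41000001 to 42000000 had 718 and 699 CPM in reseeded A and B, against 397 and 405 CPM in mature A and B, a log2 fold of 0.82 (SE 0.02). It holds 47 peaks, of which 26 gained 2-fold or more and 1 lost as much. Steps from 65000001, 29000001 and 4000001 followed with log2 folds of 0.74, 0.67 and 0.66. The longest unbroken stretch of higher steps ran from 11000001 to 16000000, with 51 peaks at least 2-fold higher and 5 lower among 121. The next, from 38000001 to 42000000, had 59 higher and 4 lower among 122.

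Most steps that fell still held more gained than lost peaks. The step from 26000001 to 27000000 had 814 and 837 CPM in reseeded A and B, against 1174 and 1178 CPM in mature A and B, a log2 fold of -0.51 (SE 0.02). In it 11 peaks gained 2-fold or more and 8 lost as much. Steps from 52000001, 51000001, 27000001 and 25000001 had log2 folds of -0.32, -0.28, -0.25 and -0.23. In the step from 51000001, with peak levels scaled as for single peaks, the sum over 24 peaks lower by under 2-fold fell by 257 CPM. The sum over 3 peaks with losses of 2-fold or more fell by 21.8 CPM, and that over 9 peaks at least 2-fold higher was 105 CPM higher. Over the whole chromosome, 17 of the 19 steps called lower held more peaks at least 2-fold higher than lower. Gained peaks outnumbered lost ones in 48 of the 51 steps, were equal in 2 and fewer in 1, and in 11 of the 51 there were 0 peaks at least 2-fold lower. Across the 14 sparse steps, 14 of 34 peaks gained 2-fold or more and 1 lost as much. The chromosome was chosen for its many gains and few losses, so nothing is read from these counts per step. They were not made for the steps of the other chromosomes.

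In segments of 10 Mb, gains were most frequent from 30 to 40 Mb (44.0% of 125 peaks) and from 40 to 50 Mb (43.2% of 139), and least frequent from 20 to 30 Mb (27.6% of 337) apart from the last 5 Mb, where 5 of 20 peaks gained. Losses lay between 6.47% (40 to 50 Mb) and 11.9% (20 to 30 Mb). The segment from 20 to 30 Mb was the densest, at 33.7 peaks per Mb, and that from 30 to 40 Mb had 12.5. The widest stretch without a peak, 3.78 Mb, lay between midpoints 45919420 and 49698635.

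Gained members lay next to other gained members more often than lost members lay next to lost ones. Runs use the calls whose shares chose the chromosome, and a larger share of gains or a smaller share of losses by itself gives more or fewer runs, so the counts are a description. Runs were formed from adjacent tested peaks at most 50 kb apart that were all at least 2-fold higher, or all at least 2-fold lower. Of the gained members, 284 of 491 (57.8%) lay in 106 runs of 2 or more, and on the other numbered chromosomes 51.8% of gained peaks did. Of the lost members, 26 of 134 (19.4%) lay in 11 runs, where the others had 42.1%. As a share of all tested peaks, losses in runs made up 1.78% on chromosome 11 and 6.35% on the others, and losses standing alone 7.41% and 8.71%. Chromosome 11 was 4th from the lowest of 38 in each of these 2 shares. Other chromosomes with few losses varied in this. Of the lost peaks of chromosomes 32, 36, 29, 33 and 23, in rising order of share lost, 18.5%, 16.3%, 30.2%, 16.9% and 39.3% lay in runs. No run of 5 or more lost peaks was found on chromosome 11, whereas the others had 92 on 28 chromosomes. Runs of 5 or more gained peaks numbered 4 on chromosome 11 and 187 on 36 of the others.

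**Figure D4:**
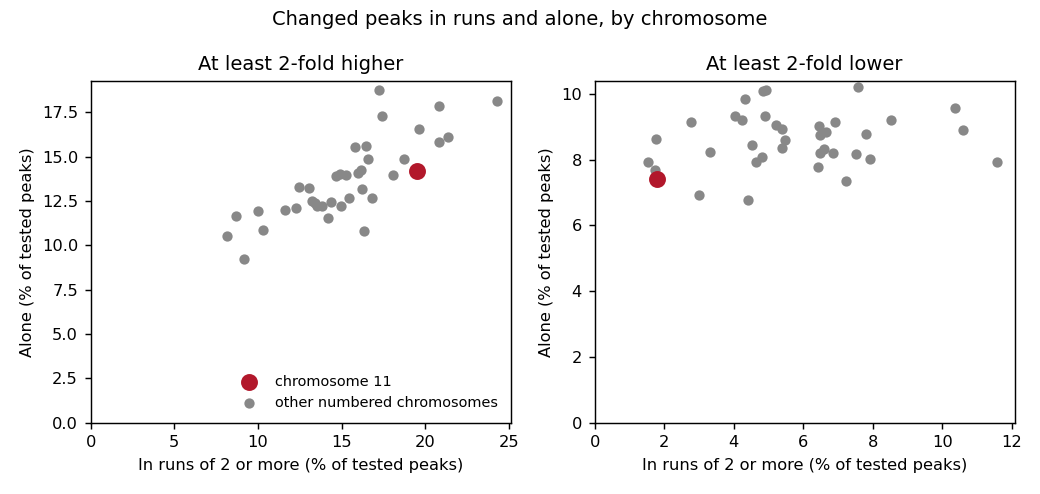
Share of tested peaks that lay in runs of 2 or more changed neighbours (horizontal axis, %) against the share that changed alone (vertical axis, %), for peaks at least 2-fold higher (left) and lower (right), each point a numbered chromosome. For losses, chromosome 11 (red) lies at the left edge with 1.78% in runs and 7.41% alone; for gains it lies to the right with 19.5% in runs and 14.2% alone.

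The longest gained run held 9 peaks over 68.8 kb, from 40948600 to 41017436, with summed levels of 173 and 169 CPM in reseeded A and B, against 37.9 and 39.04 CPM in mature A and B. The second held 8 peaks from 45571903 to 45652875, with 112.9 and 113.2 CPM in reseeded A and B, against 32.6 and 37.7 CPM in mature A and B. Another held 6 peaks from 5158841 to 5193537, with 70.2 and 68.2 CPM in reseeded A and B, against 19.5 and 23.6 CPM in mature A and B. In each run both reseeded libraries lie well above both mature ones, but the rule for a gained run required such a difference at every peak. The single log2 folds, bounded below by that rule, ran from 1.01 to 3.78. The longest lost run held 4 peaks over 4.05 kb, from 26047353 to 26051402, with 26.5 and 25.9 CPM in reseeded A and B, against 185 and 184 CPM in mature A and B. It includes the adjoining pair of deep losses given above. Lost runs of 3 peaks lay from 16933162 to 16943320 and from 55905268 to 55921889, with median log2 folds of -2.22 and -2.02.

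Folds of close neighbours are given as a description, since all pairs share the 4 libraries and no difference between chromosomes was tested. For adjacent peaks up to 1 kb apart, the correlation of log2 folds was 0.446 over 133 pairs, where the other numbered chromosomes had 0.601 over 6482 pairs. Of those 133 pairs, 9 were both at least 2-fold higher, 3 both lower and 5 opposite, and of the 6482 pairs 419, 667 and 110. From 1 to 5 kb the correlation was 0.262 over 335 pairs (others 0.318), and from 5 to 20 kb it was 0.185 over 459 pairs (others 0.191). From 20 to 100 kb it was 0.0553 over 407 pairs (others 0.130), and beyond 100 kb the order was the opposite, at 0.256 over 123 pairs (others 0.0728).

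Peaks on chromosome 11 lay in sparser surroundings than most, a property that the fold does not enter. A member had a median of 33 other peaks within 500 kb either side, and a peak of the other numbered chromosomes had 46. With 5 bins of near equal size on the other chromosomes, 32.99% of members fell in the sparsest bin (0 to 25 peaks) and 3.02% in the densest (76 to 156). In the sparsest bin 39.1% of 481 members were at least 2-fold higher, where the others had 36.2%. In the bin of 55 to 75 peaks, 30.1% of 282 members were at least 2-fold higher, where the others had 22.3%, and in the middle bin of 40 to 54 peaks 28.3% were, where the others had 28.4%. Losses were rarer on chromosome 11 in each of the 5 bins, at 7.90% against 12.1% in the sparsest, 8.42% against 12.4% and 13.1% against 14.0% in the next ones, 8.16% against 17.4% at 55 to 75 peaks, and 11.4% of only 44 members against 19.7% in the densest. At the rates of the other chromosomes in the same bins, 30.5% of members would have gained 2-fold or more and 13.8% lost as much, in place of 33.7% and 9.19%. These shares come from the calls that chose the chromosome, so nothing is read from the differences. The density comes from these same peaks, and its part in the result was not tested.

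**Figure D5:**
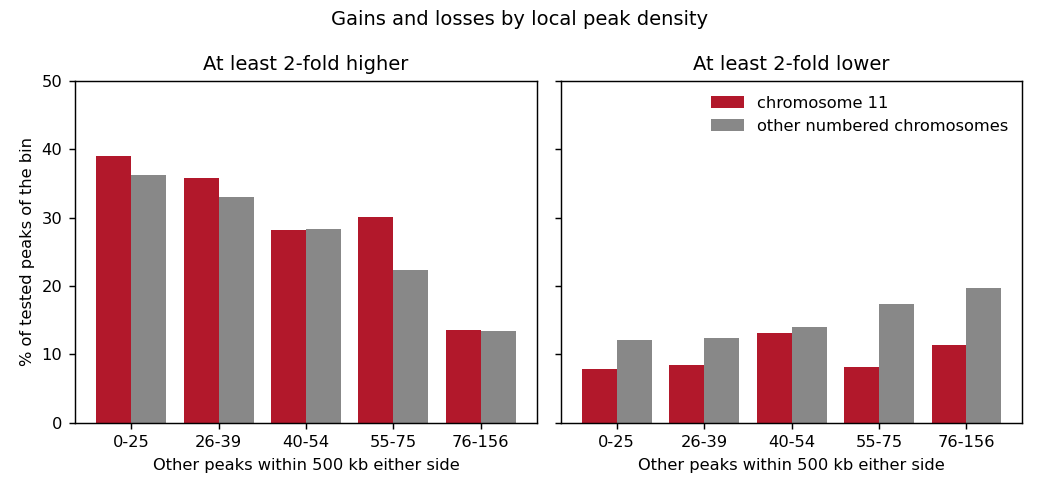
Share of tested peaks at least 2-fold higher (left) and lower (right) by the number of other peaks within 500 kb either side, for chromosome 11 (red) and the other numbered chromosomes (grey), in 5 bins. Gains are rarer in the densest bin than in the sparsest on both, though on chromosome 11 not at each step, and the red bars for losses are shorter in each bin, at 8.16% against 17.4% for 55 to 75 peaks.

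Within groups, library B was set against library A by the median log2 ratio over members. At the 199 members at least 4-fold higher, the ratio was 0.01 in reseeded and 0.26 in mature cells, and mature B exceeded mature A at 151 of them. The other numbered chromosomes had a mature ratio of 0.30 at such peaks, with mature B above mature A at 4395 of 5679. At the 491 members at least 2-fold higher the mature ratio was 0.23, with mature B above mature A at 362. Over all 1458 tested members it was 0.00073, with mature B above mature A at 730. At the 134 members at least 2-fold lower the ratio was 0.03 in reseeded and -0.06 in mature cells, and at the 45 at least 4-fold lower it was 0.05 in reseeded and -0.04 in mature cells. At the 263 members not called it was -0.0058 in reseeded and -0.07 in mature cells. Leaving out mature A or mature B moved the number of members at least 2-fold higher or lower by less than 1.5 times.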

How the data were processed

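The authors deposited raw counts per peak for 4 libraries, with no normalization. Per the submitters' processing notes, Bowtie2 and MACS2 were used with build CanFam3.1. Duplicate handling, the counted unit and the choice of peaks: not given in the sources used here. Chromosomes were read from sequence accessions and positions count from 1. Counts were analysed with edgeR 4.0.16 in R 4.3.3 (filterByExpr, TMM, quasi-likelihood test, no block) over all peaks and, separately scaled, over 1 Mb windows of at least 5 peaks. Of the 59081 peaks, 59076 were tested, and the untested member (67553696 to 67554196) had 6, 9, 3 and 3 counts in reseeded A, reseeded B, mature A and mature B. PCR copies may be counted, so intervals cover counting error only. SEs come from the fold and its F statistic. The chromosome, lists and rules were chosen with earlier results of these data known. Peaks were named as the 10 top and 10 bottom log2 folds of called members with a mean of at least 50 counts and no overlap of groups, the 5 strongest with a fold under 1.25, and the 5 highest and lowest called steps. Also named were the 3 longest runs each way and chromosomes next in rank. Alternatives used DESeq2 1.42.0 and limma 3.58.1. The letters A and B did not show pairing (correlation of deviations 0.0314). Sequence content and motifs were not analysed, as no genome of this build was used here.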

Additional observations from a re-analysis of the deposited data

How the results depend on the processing

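Of 193 alternatives for the main counts, shares and ranks, 157 stayed close to the reported value, and 300 of 315 for named peaks and steps kept direction and call; the 11 that lost the call were all at the 5 strong peaks. Loess offsets gave a median log2 fold of -0.0092, 263 peaks at least 2-fold higher, shares 1.38 points above and -5.25 points from the other chromosomes, and ranks 14 and 4; 4 of the 5 strong peaks had log2 folds of 0.20, 0.18, 0.16 and 0.15. The cause was not tested. Library size alone and upper-quartile factors gave a median of 0.26, a difference in losses of -5.33 points, and 7 and 12 steps called lower; library size put 1 step past 2-fold. Thinning gave 0.20 and 7.32 points. A 1.5-fold bound gave 278 lower peaks, 6.36 and -7.75 points and rank 5 in losses; a 4-fold bound gave 199 and 45 peaks, 3.55 and -2.88 points and rank 10 in gains. Steps of 2 Mb gave 28 calls (18 higher, 10 lower), a 500 kb shift put 1 and a minimum of 3 peaks 2 past 2-fold. With a library left out, called members ranged from 1079 to 1196, higher from 454 to 500, lower from 131 to 143, the median from 0.22 to 0.23, the differences from 6.12 to 7.02 and -6.06 to -5.71 points, rank in gains from 8 to 10 and in losses 1 throughout; steps ranged from 37 to 46 called, 25 to 27 higher and 12 to 19 lower, with 0 past 2-fold. A library alone in its group was assumed to vary as the other pair does. The replicate block gave 1180 called members, 494 higher and 134 lower, and 44 steps, and changed no call of a named peak or step. Depth limits small folds: after thinning 1114 members were called.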
